A study of Mus musculus with 30 samples.

Results

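Cells of the mouse testis enriched for the surface protein THY1 at postnatal day 7 (P7) were compared with cells enriched in the same way at the day of birth, postnatal day 0 (P0). The comparison uses 4 of the 30 samples of the series, 2 RNA libraries at P7 and 2 at P0, chosen by their labels alone. All were labelled as spermatogonia of C57BL/6 mice, with no genetic change or treatment named, and were taken from testis with magnetic beads carrying an antibody to CD90.2, a form of THY1. The deposited table holds 1 value for each gene and age, in FPKM (fragments of a transcript scaled to its length and to all mapped fragments), for 20889 gene symbols. Since each age has 1 value, no difference below could be checked against replicates or tested, and every value describes these libraries alone. Whether the 2 libraries of an age came from separate animals is not given. As a second view, the columns of cells sorted for green fluorescence from Oct4-GFP mice are set alongside, with 1 library at P7 and 1 at P0, all of them other libraries than the THY1 ones. P12 and P14 THY1 cells, with 2 libraries and 1 library, and the other columns labelled P7 (ID4-GFP, VASA THY1 and KIT) serve as further context.

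Around birth the germ cells of the mouse testis are prospermatogonia, which rest in the cell cycle in the middle of the testis cords. In the following days they resume division, move to the basement membrane of the cord and become spermatogonia, some of which act as stem cells and some of which turn towards differentiation in response to retinoic acid. Sertoli cells make up the wall of the cord, peritubular myoid cells wrap it, and fibroblasts, Leydig cells, macrophages and vessels lie between the cords. THY1 is widely used to enrich undifferentiated spermatogonia of mouse pups, and it is also made by T cells, neurons and some fibroblasts.

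A gene was counted as different when log2(FPKM + 1) differed by at least 2, which is 4-fold on that scale, with at least 5 FPKM in the higher column. By this rule 69 genes were higher at P7, 0.33% of the 20889 genes, and 638 were lower, 3.05%. At 2-fold, a log2 difference of 1, the counts were 690 higher (3.3%) and 1870 lower (8.95%). The floor of 5 FPKM held for all counts at 2-fold and 4-fold, in the lists below too. The 4-fold bound fell between Kif2c at 2.002 inside and Mett10d at 1.992 just outside among higher genes. Among lower genes Mpst at -2.0013 lay inside and Tet1 at -1.9993 just outside. Lists of genes by pathway or cell type were described over their expressed members, those with 1 FPKM or more in at least 2 of the 11 columns of the table. Over the 14200 expressed genes, 4.83% were at least 2-fold higher at P7, 12.7% at least 2-fold lower, 0.458% passed 4-fold on the higher side and 4.11% on the lower side, and the median difference was -0.09. Where a list median moves by over 1.5 times or changes sign under quantile scaling, a pseudocount of 0.1 or the VASA THY1 column (1 library of another selection) in place of P7 THY1, that value is given with it. The VASA THY1 column is P7 by its label, but its protocol gives another age.

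**Figure D1:**
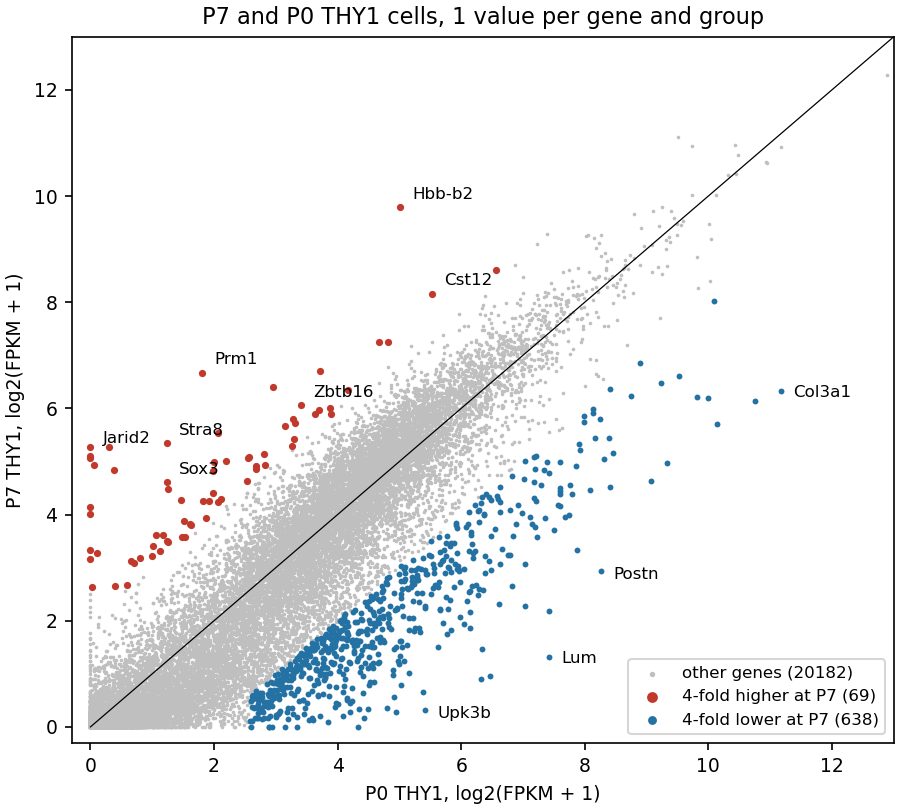
Each point is 1 gene, with log2(FPKM + 1) in P7 THY1 cells on the vertical axis and in P0 THY1 cells on the horizontal axis; red points are the 69 genes at least 4-fold higher at P7, blue points the 638 at least 4-fold lower, and the line marks equal levels. Blue points reach far below the line at high P0 levels (Col3a1, Postn, Lum), and red points include 7 at the left edge, such as Jarid2, that are listed at 0 in P0 THY1 cells; 1 gene, Rmrp, lies beyond the axes.

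Promoters of 5 genes on both sides of the comparison are shown because they differ between P7 and P0 and carry short motifs of well-known regulators. Each is the 250 bases before the first start listed for the gene, from RefSeq on build GRCm38.p6, written 5′ to 3′ on the strand of the gene. Capitals mark the motif matches, of CCAAT on either strand for Stra8 and Col1a2, of the DR5 element for Cyp26a1 and of the CArG-like element for Acta2 and Myl9. Stra8, a retinoic acid target, lies at chr6:34920698-34920947 on the plus strand, and Cyp26a1, an enzyme gene of retinoic acid breakdown, at chr19:37697558-37697807 on the plus strand. Acta2, the smooth muscle actin gene, lies at chr19:34255374-34255623 on the minus strand, Myl9, a myosin light chain gene, at chr2:156775214-156775463 on the plus strand, and Col1a2, a collagen type I gene, at chr6:4505368-4505617 on the plus strand.
Stra8: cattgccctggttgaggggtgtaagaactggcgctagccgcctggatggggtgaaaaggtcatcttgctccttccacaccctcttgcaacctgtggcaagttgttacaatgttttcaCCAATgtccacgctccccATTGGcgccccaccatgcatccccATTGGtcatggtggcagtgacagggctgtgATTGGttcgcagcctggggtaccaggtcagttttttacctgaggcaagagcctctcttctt
Cyp26a1: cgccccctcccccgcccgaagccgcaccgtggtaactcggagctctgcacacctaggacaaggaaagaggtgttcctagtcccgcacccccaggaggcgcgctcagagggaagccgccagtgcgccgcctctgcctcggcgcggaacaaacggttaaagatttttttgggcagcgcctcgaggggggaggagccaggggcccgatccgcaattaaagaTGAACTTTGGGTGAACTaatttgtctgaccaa
Acta2: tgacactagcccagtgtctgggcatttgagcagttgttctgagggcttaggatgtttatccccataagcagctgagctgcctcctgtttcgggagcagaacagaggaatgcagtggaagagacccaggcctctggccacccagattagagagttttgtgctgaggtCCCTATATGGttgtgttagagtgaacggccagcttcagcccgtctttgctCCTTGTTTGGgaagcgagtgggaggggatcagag
Myl9: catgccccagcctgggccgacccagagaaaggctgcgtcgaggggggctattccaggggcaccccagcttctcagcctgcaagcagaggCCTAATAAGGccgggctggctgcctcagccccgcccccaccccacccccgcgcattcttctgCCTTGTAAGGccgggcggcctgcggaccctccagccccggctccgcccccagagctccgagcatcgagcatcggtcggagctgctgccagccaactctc
Col1a2: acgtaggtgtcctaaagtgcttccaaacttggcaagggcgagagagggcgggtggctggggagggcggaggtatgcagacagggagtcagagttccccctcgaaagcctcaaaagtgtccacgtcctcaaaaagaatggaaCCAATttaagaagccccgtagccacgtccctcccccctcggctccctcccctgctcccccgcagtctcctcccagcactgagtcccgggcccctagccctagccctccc

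The CCAAT letters started 133, 115, 91 and 61 bases before the start of Stra8 and 109 before that of Col1a2. They are common, with a match in 35.9% of the 14430 promoters that could be paired with a gene of the table. The DR5 element, to which retinoic acid receptors bind as a direct repeat with a gap, was found in 0.0485% of those promoters and in 2 of 18 promoters of the retinoic acid list. In Cyp26a1 it began 32 bases before the start. A DR5 match stood in 1 of 47 promoters of genes 4-fold higher at P7 and in 1 of 434 promoters of genes 4-fold lower. The CArG-like element, known as the binding sequence of serum response factor and allowed here 1 base other than A or T between CC and GG, stood in 8.22% of promoters and in 2 of 12 promoters of the peritubular myoid list, Acta2 and Myl9. Matches are descriptions of letters, not of binding. Promoters of genes 4-fold higher and 4-fold lower at P7 were alike in CpG content: the median ratio of observed to expected CpG was 0.456 over 47 promoters of higher genes, 0.459 over 434 promoters of lower genes and 0.718 over 9916 promoters of expressed genes. Sox3, Zbtb16, Tagln, Actg2, Myh11, Col1a1 and Lum are named without a promoter.

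The THY1 label and the germ cell label were checked first. Thy1 stood at 1.64 FPKM in P7 THY1 cells, against 18.3 FPKM in P0 THY1 cells, a difference of -2.87. In the OCT4-GFP columns Thy1 stood at 1.64 FPKM at P7 and 5.07 FPKM at P0. The gene of the selected protein was thus low at P7 in bead-selected and in fluorescence-sorted cells alike. Germ cell genes were present at both ages: the 12 pan-germ cell genes had a median of 46.9 FPKM in P7 THY1 cells and 24.2 FPKM in P0 THY1 cells, and none of them was at 0. The fibroblast list had a median of 6.65 FPKM in P7 THY1 cells but 158 FPKM in P0 THY1 cells, above the germ cell list of that column. Its 14 genes summed to 351 FPKM in P7 THY1 cells and 7030 FPKM in P0 THY1 cells. In bulk samples such as these, fewer cells of a type and less RNA per cell cannot be told apart.

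Pan-germ cell genes were higher in P7 THY1 cells. Of 12 members 5 passed 2-fold on the higher side and none on the lower side, and the median difference was 0.90, against -0.05 in the OCT4-GFP columns. Dazl, an RNA-binding protein gene of all germ cells, stood at 606 FPKM in P7 THY1 and 257 FPKM in P0 THY1 cells. Tex19.1, a germ cell gene that restrains retrotransposons, stood at 251 against 105 FPKM, and Taf7l, a germ cell relative of a general transcription factor subunit, at 219 against 61.4 FPKM. Dnd1, which protects germ cell mRNAs, stood at 43.6 FPKM in P7 THY1 and 12.96 FPKM in P0 THY1 cells. Of the 12 members 2 had a negative difference, the lowest -0.86. Mael, of the piRNA pathway, was the nearer to 0 of them, with 291 FPKM at P7 and 297 FPKM at P0. The whole list summed to 1735 FPKM in P7 THY1 and 925 FPKM in P0 THY1 cells. In sorted OCT4-GFP cells the sums ran the other way, 2016 FPKM at P7 and 2283 FPKM at P0. The undifferentiated, differentiating, meiosis, piRNA and cell cycle lists described below have THY1 medians from 0.46 to 0.73, under the 0.90 of this list. The part of the pan-germ cell shift in them was not tested.

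Genes of undifferentiated spermatogonia were higher in P7 THY1 cells in part. Of 22 members 7 were at least 2-fold and 4 at least 4-fold higher in P7 THY1 cells, and none was 2-fold lower. Sox3, Nanos3, Zbtb16 and Lin28a made up the 4: Nanos3, an RNA-binding protein gene, differed by 2.81, Zbtb16, which encodes the transcription factor PLZF, by 2.66, and Lin28a, which blocks let-7 maturation, by 2.52. In OCT4-GFP cells these differences were smaller, 0.98 for Nanos3, 1.11 for Zbtb16 and 0.56 for Lin28a. Egr4, a zinc finger factor gene, stood at 36.3 FPKM in P7 THY1 and 8.58 FPKM in P0 THY1 cells. Gfra1, the receptor gene for the niche factor GDNF, stood at 29.0 FPKM in P7 THY1 and 20.4 FPKM in P0 THY1 cells, while in OCT4-GFP cells it stood at 58.7 FPKM at P7 and 153 FPKM at P0. Id4, a stem cell marker gene, stood at 29.6 and 25.6 FPKM in P7 and P0 THY1 cells and at 26.3 and 62.5 FPKM in P7 and P0 OCT4-GFP cells. Over the list the median difference was 0.59 in THY1 and -0.66 in OCT4-GFP columns, where 7 members were at least 2-fold lower at P7 and 6 at least 2-fold higher. The THY1 median was 0.30 with the VASA THY1 column.

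Sox3, a transcription factor gene of progenitor spermatogonia, is the gene with the most even record. It stood at 23.5 FPKM in P7 THY1 cells against 1.35 FPKM in P0 THY1 cells, a difference of 3.38, and at 55.5 FPKM in P7 OCT4-GFP cells against 6.28 FPKM in P0 OCT4-GFP cells, a difference of 2.96. It was the only gene at least 4-fold higher at P7 in both pairs of columns. In the other P7 columns Sox3 lay between 23.3 FPKM in KIT cells and 54.6 FPKM in ID4-GFP cells. It stood at 15.0 FPKM in P12 and 18.0 FPKM in P14 THY1 cells, so that the P0 THY1 level was the lowest of the 11 columns.

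Genes of differentiating spermatogonia were higher in P7 cells of both selections. The median difference was 0.62 in THY1 columns and 0.65 in OCT4-GFP columns, and 6 of 15 members were at least 2-fold higher in P7 THY1 cells with none 2-fold lower. Stra8, needed to enter meiosis, differed by 4.11 in THY1 cells and by 2.00, just short of the bound, in OCT4-GFP cells. Its level at P7 was 39.7 FPKM in THY1 cells, 61.5 FPKM in ID4-GFP cells and 106 FPKM in KIT cells, against 1.35 FPKM in P0 THY1 and 21.4 FPKM in P0 OCT4-GFP cells. Uchl1, a ubiquitin hydrolase gene abundant in spermatogonia, stood at 621 FPKM in P7 THY1 and 166 FPKM in P0 THY1 cells. Dmrt1, which holds back meiosis in spermatogonia, stood at 187 against 68.2 FPKM, and Sohlh2, a differentiation factor gene, at 45.9 against 17.6 FPKM. Dmrtb1, which controls the switch to meiosis, stood at 5.49 FPKM in P7 THY1 cells and 0.713 FPKM in P0 THY1 cells. Kit, the receptor gene of differentiating spermatogonia, stood at 21.3 FPKM in P7 THY1 and 13.5 FPKM in P0 THY1 cells, short of 2-fold. In OCT4-GFP cells Kit passed the 4-fold rule, with 36.7 FPKM at P7 and 7.79 FPKM at P0. With the VASA THY1 column the list median was 1.46.

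Meiotic genes were already transcribed at both ages and were more often higher than lower in P7 THY1 cells. Of 24 members, P7 THY1 cells had 8 past 2-fold on the higher side and 2 on the lower side. The shares over expressed genes were 4.83% and 12.7%. The median difference was 0.46, against -0.56 in the OCT4-GFP columns. Tex11, needed for chromosome pairing, stood at 61.7 FPKM in P7 THY1 and 12.0 FPKM in P0 THY1 cells, and at 72.8 and 86.7 FPKM in P7 and P0 OCT4-GFP cells. Sycp3, a synaptonemal complex gene, stood at 99.6 against 42.8 FPKM in THY1 cells. Spata22, of meiotic recombination, was lower at P7, with 1.56 FPKM in P7 THY1 and 8.22 FPKM in P0 THY1 cells. The median level of the list did not follow the median of the differences, since it was 8.98 FPKM in P7 THY1 and 10.02 FPKM in P0 THY1 cells. The median difference was 1.28 with the VASA THY1 column.

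Genes of the fetal germline showed no common shift, with a median of -0.05 over 20 members that became 0.16 under quantile scaling and 0.03 with the VASA THY1 column at P7, but 4 of them were at least 2-fold lower at P7. Dnmt3l, the cofactor of new DNA methylation in prospermatogonia, differed by -3.57 in THY1 cells and by -1.39 in OCT4-GFP cells. Dppa4, a chromatin gene of early germ cells, stood at 8.90 FPKM in P7 THY1 and 33.1 FPKM in P0 THY1 cells, and at 14.6 and 41.1 FPKM in P7 and P0 OCT4-GFP cells. Utf1 and Tet1 were the other 2. Pou5f1, which encodes OCT4, stood at 21.0 FPKM in P7 THY1 and 15.7 FPKM in P0 THY1 cells, against 29.2 and 37.3 FPKM in P7 and P0 OCT4-GFP cells. In the DNA methylation list, which had a median of 0.25 over 16 members, Dnmt3b, a methyltransferase gene, stood at 21.8 FPKM in P7 THY1 and 5.56 FPKM in P0 THY1 cells. Its relative Dnmt3a stood at 16.5 against 29.7 FPKM. Dnmt1, the maintenance methyltransferase gene, stood at 128 FPKM in P7 THY1 and 62.3 FPKM in P0 THY1 cells, and at 157 and 222 FPKM in P7 and P0 OCT4-GFP cells. The remodelling factor gene Hells stood at 142 against 51.7 FPKM in THY1 cells and at 190 against 286 FPKM in OCT4-GFP cells.

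The piRNA pathway, which silences transposons in germ cells, had a median of 0.69 over 14 members in THY1 cells and -0.05 in OCT4-GFP cells. Mov10l1, a helicase gene of piRNA production, stood at 101 FPKM in P7 THY1 and 28.7 FPKM in P0 THY1 cells, and Tdrkh, a tudor domain gene, at 16.1 against 4.53 FPKM. Piwil2, which encodes a piRNA carrier, stood at 113 against 73.7 FPKM. In OCT4-GFP cells these 3 genes were also above their P0 level. At P7 and P0 there, Mov10l1 stood at 141 and 114 FPKM, Tdrkh at 29.0 and 12.7 FPKM and Piwil2 at 178 and 142 FPKM. The members Ddx4, Mael, Rnf17 and Fkbp6 were below their P0 level in OCT4-GFP cells, with Rnf17 at 55.4 and 60.3 FPKM. Ddx4, Mael and Rnf17 are pan-germ cell genes as listed here too. Of the 14 piRNA members 2 were at least 2-fold higher in P7 THY1 cells and none 2-fold lower. The list median became 1.39 with the VASA THY1 column.

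Cell cycle genes were higher in P7 THY1 cells, with 7 of 25 at least 2-fold higher, none 2-fold lower and a median of 0.73. They were not higher in P7 OCT4-GFP cells, where the median was -0.23. Cenpe, a kinetochore motor, stood at 39.95 FPKM in P7 THY1 and 14.3 FPKM in P0 THY1 cells, Cdc20, an activator of the anaphase-promoting complex, at 73.5 against 29.9 FPKM, and Aurka, a mitotic kinase, at 32.5 against 13.6 FPKM. Mcm2, of the replicative helicase, stood at 114 against 52.0 FPKM, and Pcna, the sliding clamp, stood at 84.0 FPKM in P7 THY1 and 78.5 FPKM in P0 THY1 cells. Inhibitors of the cycle and genes of growth arrest were on the other side, with 6 of 14 at least 2-fold lower, 3 at least 2-fold higher and a median of -0.70, or -1.14 with the VASA THY1 column. Gas1, a growth arrest gene that is also a hedgehog co-receptor, stood at 6.77 FPKM in P7 THY1 and 88.2 FPKM in P0 THY1 cells. Cdkn1c, an imprinted inhibitor of cyclin-dependent kinases, stood at 32.7 against 144 FPKM. The stress-linked genes Gadd45b, at 109 against 27.3 FPKM, and Gadd45a, at 37.2 against 13.9 FPKM, were among the 3 higher ones. Gas1 was almost absent from OCT4-GFP cells, with 1.82 FPKM at P7 and 0.665 FPKM at P0.

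Retinoic acid genes differed in both directions. Cyp26a1, the breakdown enzyme gene shown above, and Aldh1a3, a gene for a retinoic acid-making enzyme, were the 2 members at least 2-fold higher. Cyp26a1 stood at 5.36 FPKM in P7 THY1 and 0.511 FPKM in P0 THY1 cells and at 5.02 and 2.92 FPKM in P7 and P0 OCT4-GFP cells. Crabp2, a retinoic acid carrier, stood at 3.65 against 25.3 FPKM, Dhrs3, which turns retinaldehyde back into retinol, at 5.11 against 33.8 FPKM, and the receptor gene Rarb at 0.223 against 5.78 FPKM. Another receptor gene, Rarg, given after its values were seen, stood at 11.1 against 10.2 FPKM in THY1 cells and at 19.6 against 3.63 FPKM in OCT4-GFP cells. Adh1, an alcohol dehydrogenase that oxidises retinol, stood at 19.4 FPKM in P7 THY1 and 94.6 FPKM in P0 THY1 cells. Aldh1a3 stood at 6.75 against 2.87 FPKM. Of 19 members 6 were at least 2-fold lower, and the median was -0.31, or -0.09 under quantile scaling and -0.54 with the VASA THY1 column. Aldh1a1, an enzyme that makes retinoic acid and is abundant in Sertoli cells, stood at 154 FPKM in P7 THY1 and 111 FPKM in P0 THY1 cells.

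Collagen genes were far lower in P7 THY1 cells. All 11 expressed fibrillar collagens and all 13 other expressed collagens had a negative difference, with medians of -3.09 and -2.92. At least 4-fold lower at P7 were 7 of the 11 and 9 of the 13, against 4.11% of expressed genes. Col3a1 stood at 79.2 FPKM in P7 THY1 and 2307 FPKM in P0 THY1 cells, Col1a2 at 69.3 against 1719.5 FPKM and Col1a1 at 51.2 against 1132 FPKM, which are chains of the fibres of loose connective tissue. The beaded-filament genes Col6a1 and Col6a2 stood at 30.4 and 23.8 FPKM in P7 THY1 cells and at 641 and 536 FPKM in P0 THY1 cells. Fibre-associated Col14a1 differed by -5.51 and Col9a2, a chain known from cartilage, by -4.73. In OCT4-GFP cells the medians of both lists were close to 0, -0.05 for fibrillar and -0.10 for other collagens, and Col3a1 stood at 21.0 FPKM at P7 and 16.2 FPKM at P0. Several collagen and matrix genes are themselves fibroblast markers, and the summed level of the fibroblast list, 351 FPKM in P7 THY1 and 7030 FPKM in P0 THY1 cells, moved with the matrix, mesenchyme, HOX and signalling genes described next. Its part in them was not tested.

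Basement membrane genes had a smaller median difference than fibrillar collagens. Of 20 members 9 passed 2-fold and 2 passed 4-fold on the lower side, and the median was -0.65, or -1.74 with the VASA THY1 column. The 2 were Col4a6, at 1.29 FPKM in P7 THY1 and 20.7 FPKM in P0 THY1 cells, and Col4a5, at 8.33 against 44.6 FPKM, chains of the same collagen IV network. The common chains differed little, with Col4a1 at 210 FPKM in P7 THY1 and 294 FPKM in P0 THY1 cells and Col4a2 at 83.7 against 122 FPKM. The laminin genes Lamc1 and Lamb1 stood at 55.1 against 62.1 FPKM and at 79.2 against 125 FPKM, whereas Lamb2 stood at 10.04 against 31.3 FPKM. Nid1, which links laminin to collagen IV, stood at 40.2 FPKM in P7 THY1 and 121 FPKM in P0 THY1 cells.

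Proteoglycan and matricellular genes, the soluble and fibre-binding part of the matrix, gave 27 of 33 members at least 2-fold and 21 at least 4-fold lower in P7 THY1 cells, and none 2-fold higher. The median was -2.38, or -3.87 with the VASA THY1 column. The small leucine-rich proteoglycans were at the extreme, with Lum differing by -6.11, the lowest value of all genes past the rule, and Aspn, at 0.874 FPKM in P7 THY1 and 79.3 FPKM in P0 THY1 cells, by -5.42. Dcn stood at 73.6 FPKM in P7 THY1 and 900 FPKM in P0 THY1 cells. The microfibril gene Mfap2 stood at 3.84 against 131 FPKM. In contrast 3 genes known as targets of the YAP pathway or of serum, Cyr61, Ctgf and Thbs1, were above their P0 level: Cyr61 stood at 303 FPKM in P7 THY1 and 179 FPKM in P0 THY1 cells, Ctgf at 144 against 87.8 FPKM and Thbs1 at 112 against 68.8 FPKM, all short of 2-fold. In the P7 VASA THY1 column they were below the P0 THY1 level, at 29.3 FPKM for Cyr61, 3.97 FPKM for Ctgf and 1.67 FPKM for Thbs1. Sparc, a collagen-binding protein gene, stayed abundant, with 307 FPKM in P7 THY1 and 912 FPKM in P0 THY1 cells.

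Enzymes that build and cut the matrix were lower with it. Of 26 members 18 passed 2-fold and 11 passed 4-fold on the lower side, and the median was -1.70. Lox and Loxl1, which crosslink collagen and elastin, stood at 4.78 and 4.26 FPKM in P7 THY1 cells and at 68.9 and 55.7 FPKM in P0 THY1 cells. The gelatinase gene Mmp2 stood at 17.1 against 188 FPKM and Pcolce, which speeds collagen processing, at 22.6 against 156 FPKM. Serpinh1, the collagen chaperone HSP47, stood at 114 FPKM in P7 THY1 and 477 FPKM in P0 THY1 cells. The protease inhibitor gene Timp1 stood apart, with 72.3 FPKM in P7 THY1 and 67.7 FPKM in P0 THY1 cells.

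Transcription factors of mesenchyme were lower in P7 THY1 cells. Of 34 members 19 were at least 2-fold and 11 at least 4-fold lower at P7, and 2 at least 2-fold higher, with a median of -1.37, or -2.11 with the VASA THY1 column. Meis1 and Meis2, homeobox partners of HOX proteins, stood at 1.83 and 0.401 FPKM in P7 THY1 cells and at 48.3 and 17.9 FPKM in P0 THY1 cells. Tcf21, which marks interstitial progenitors of the fetal gonad, stood at 6.49 against 82.5 FPKM, Nr2f2, a nuclear receptor of the interstitium, at 3.14 against 36.4 FPKM and Twist2 at 0.712 against 13.5 FPKM. The HOX genes had 14 expressed members of 39 in the table, 3 of them past 4-fold on the lower side, and a median of -0.75, or -0.12 under quantile scaling and -1.23 with the VASA THY1 column. The 3 were Hoxc4, Hoxc6 and Hoxd9, with Hoxc6 at 0.905 FPKM in P7 THY1 and 10.6 FPKM in P0 THY1 cells. Hoxc8, at 0.208 against 17.4 FPKM, and Hoxa10, at 0.193 against 7.25 FPKM, were lower as well but reached 1 FPKM in too few columns to count among the 14. In OCT4-GFP cells Hoxc8 stood at 0.0609 FPKM at P7 and 0.105 FPKM at P0.

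**Figure D2:**
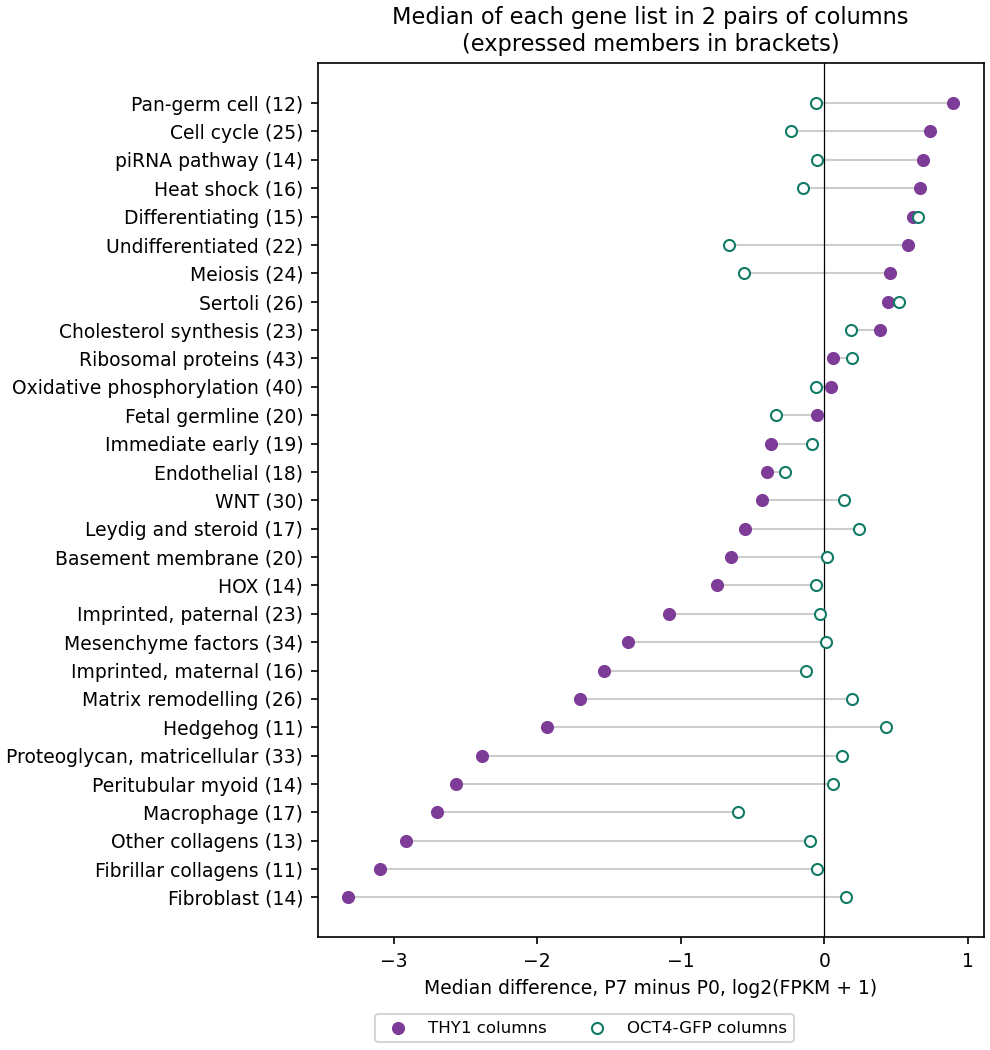
Each row is a gene list with the number of its expressed members; filled points are the median difference of log2(FPKM + 1), P7 minus P0, in THY1 columns and open points the same in OCT4-GFP columns. Collagen, proteoglycan, matrix remodelling, hedgehog, fibroblast, myoid and macrophage lists lie between -3.32 and -1.70 in THY1 columns, whereas the open points of all lists shown lie between -0.66 and 0.65.

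Signalling genes were more often lower than higher in P7 THY1 cells, and many did not pass 2-fold. In the WNT list 12 of 30 members were at least 2-fold and 5 at least 4-fold lower in P7 THY1 cells, 2 were at least 2-fold higher, and the median was -0.43, or -0.16 under quantile scaling and -1.30 with the VASA THY1 column. The ligand gene Wnt5a stood at 3.17 FPKM in P7 THY1 and 61.9 FPKM in P0 THY1 cells, and the secreted antagonist gene Sfrp1 at 13.1 against 141 FPKM. The R-spondins, which strengthen WNT signals, went different ways: Rspo3 stood at 0.262 against 21.5 FPKM and Rspo1 at 1.00 against 16.0 FPKM, while Rspo2 stood at 11.2 FPKM in P7 THY1 and 1.09 FPKM in P0 THY1 cells. Rspo2 stood at 11.4 and 5.63 FPKM in P7 and P0 OCT4-GFP cells.

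Hedgehog genes were lower on the receiving side. Of 11 members 7 passed 2-fold and 4 passed 4-fold on the lower side, and the median was -1.93, against 0.43 in OCT4-GFP cells. The 4 genes were the co-receptor genes Gas1, described above, and Boc, at 6.29 FPKM in P7 THY1 and 38.1 FPKM in P0 THY1 cells, and the pathway's own targets Hhip, at 1.82 against 10.9 FPKM, and Gli1, at 1.97 against 11.0 FPKM. Smo, the signal transducer, stood at 10.9 against 45.7 FPKM. Dhh, the ligand gene made by Sertoli cells, was the only expressed member with a positive difference, picked for that after its values were seen, with 10.2 FPKM in P7 THY1 and 4.72 FPKM in P0 THY1 cells.

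In the BMP and TGF-beta list 15 of 41 members were at least 2-fold lower, 8 of these past 4-fold, and 3 at least 2-fold higher (median -0.51, or -1.93 with the VASA THY1 column). Tgfbi, a secreted TGF-beta target, stood at 5.31 FPKM in P7 THY1 and 71.1 FPKM in P0 THY1 cells, Fstl1, a follistatin-like gene, at 42.7 against 334 FPKM and the ligand gene Tgfb3 at 3.38 against 27.2 FPKM. The target genes Id2 and Id3 stood at 58.9 and 86.0 FPKM in P7 THY1 cells and at 87.5 and 127 FPKM in P0 THY1 cells. Growth factor genes of the IGF, PDGF, FGF and related families gave 17 of 40 at least 2-fold lower, 11 of these past 4-fold, and 2 at least 2-fold higher (median -0.94, or -2.29 with the VASA THY1 column). Igfbp5 stood at 3.997 against 97.3 FPKM, Ptn, a heparin-binding growth factor gene, at 2.66 against 69.6 FPKM and the receptor gene Ngfr at 0.787 against 22.005 FPKM. Not all binding proteins did so, since Igfbp3 stood at 115 FPKM in P7 THY1 and 68.3 FPKM in P0 THY1 cells. NOTCH genes had a median of -0.11 over 18 members, or 0.01 under quantile scaling and -0.85 with the VASA THY1 column, with the receptor gene Notch3, at 1.60 against 9.99 FPKM, the only one 4-fold lower.

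Of 17 chemokine genes 7 were at least 2-fold lower and 1 at least 2-fold higher in P7 THY1 cells. Their median was -0.72, or -0.11 under quantile scaling and -2.23 with the VASA THY1 column, with Cxcl12, a stromal chemokine that attracts germ cells, at 11.2 FPKM in P7 THY1 and 70.3 FPKM in P0 THY1 cells and Ccl3 at 2.12 against 17.8 FPKM. Of 26 adhesion genes 10 were at least 2-fold lower, 5 of these past 4-fold, and another 5 at least 2-fold higher, and the median was -0.51, or -2.01 with the VASA THY1 column. Cdh11, the cadherin of mesenchyme, stood at 7.38 against 130 FPKM and Ncam1 at 3.26 against 32.3 FPKM. Itgb1, the common integrin beta chain, stood at 136 FPKM in P7 THY1 and 155 FPKM in P0 THY1 cells. Among the 5 higher genes, Epcam and Itga6, which are used to sort spermatogonia and were picked here after their values were seen, stood at 55.9 and 53.7 FPKM in P7 THY1 cells and at 24.8 and 24.9 FPKM in P0 THY1 cells.

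Imprinted genes of both parental classes, as listed here, were lower in P7 THY1 cells. Of 23 genes listed as paternally expressed 12 were at least 2-fold and 6 at least 4-fold lower at P7. Their median was -1.08, or -0.68 under quantile scaling and -1.82 with the VASA THY1 column. Of 16 genes listed as maternally expressed the counts were 9 and 5 (median -1.54). In OCT4-GFP columns the medians were -0.03 and -0.13. That these effects differ between the selections was not tested. Peg3 stood at 33.2 FPKM in P7 THY1 and 146 FPKM in P0 THY1 cells, Ndn at 15.0 against 81.7 FPKM, Grb10, which dampens insulin signals, at 22.5 against 217 FPKM and the noncoding RNA genes Rian and Meg3 at 12.4 and 10.3 FPKM against 60.0 and 44.8 FPKM. Gnas, of G protein signalling, stood at 207 FPKM in P7 THY1 and 596 FPKM in P0 THY1 cells. Mest and H19 are the members with a difference past -1 in OCT4-GFP cells too: Mest stood at 18.2 FPKM at P7 and 47.6 FPKM at P0 there, and H19 at 34.2 and 80.6 FPKM. The fibroblast list, whose summed level is given above, moved with the imprinted genes, and its part in them was not tested.

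Markers of the cells around the germ cells differed by cell type. Peritubular myoid genes had 10 of 14 members at least 2-fold and 9 at least 4-fold lower in P7 THY1 cells (median -2.57), summing to 682 FPKM at P7 and 2006 FPKM at P0. Acta2 stood at 87.9 FPKM in P7 THY1 and 602 FPKM in P0 THY1 cells, Des, an intermediate filament gene of muscle, at 5.60 against 62.5 FPKM, and Tpm2 at 6.50 against 52.4 FPKM. Tpm1, a tropomyosin gene that is not specific to muscle, stood at 391 against 416 FPKM. Leydig cell and steroid genes had a median of -0.55 over 17 members, or -0.07 under quantile scaling, -0.91 with a pseudocount of 0.1 and -1.09 with the VASA THY1 column, with Hsd3b1, which may share reads with its close copies, at 11.8 FPKM in P7 THY1 and 49.7 FPKM in P0 THY1 cells and the hormone gene Insl3 at 18.3 against 61.1 FPKM. Endothelial genes had a median of -0.40 over 18 members, or 0.04 under quantile scaling and -2.63 with the VASA THY1 column, and only Lyve1 and Ramp2 were 4-fold lower, Lyve1 at 0.804 against 23.1 FPKM and Ramp2 at 9.66 against 55.7 FPKM. The epithelial list had 3 of 9 expressed members 4-fold lower, the keratin genes Krt7, at 0.279 FPKM in P7 THY1 and 26.9 FPKM in P0 THY1 cells, and Krt19, at 2.34 against 53.3 FPKM, and the claudin gene Cldn7, at 0.624 against 6.47 FPKM. Upk3b and Msln, markers of the mesothelium that covers the testis, are not among the 9 because they reached 1 FPKM in too few columns. Upk3b stood at 0.246 against 41.5 FPKM and Msln at 0.721 against 31.6 FPKM.

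Sertoli cell genes went both ways. Of 26 members 8 were at least 2-fold and 3 at least 4-fold higher in P7 THY1 cells, and 3 passed 2-fold on the lower side. The median difference was 0.44 in THY1 and 0.52 in OCT4-GFP cells, and in THY1 cells it was 0.83 under quantile scaling and 1.40 with the VASA THY1 column. Cst12, a cystatin gene of Sertoli cells, stood at 286 FPKM in P7 THY1 and 44.9 FPKM in P0 THY1 cells, Aard at 151 against 24.4 FPKM and Defb36 at 41.7 against 8.81 FPKM. Clu, a secreted chaperone gene, stood at 414 FPKM in P7 THY1 and 116 FPKM in P0 THY1 cells. The keratins of fetal Sertoli cells were lower, with Krt18 at 8.38 against 107 FPKM and Krt8 at 2.63 against 37.1 FPKM. Krt18 was lower in OCT4-GFP cells as well, at 3.23 FPKM at P7 and 28.5 FPKM at P0. The list summed to 1815 FPKM in P7 THY1 and 948 FPKM in P0 THY1 cells, although its median level was 18.5 FPKM at P7 and 24.1 FPKM at P0.

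Macrophage genes were lower in P7 THY1 cells. Of 17 expressed members 14 were at least 2-fold and 13 at least 4-fold lower (median -2.70), and the list summed to 95.9 FPKM at P7 and 720 FPKM at P0. Their median level was 18.1 FPKM in P7 OCT4-GFP and 30.7 FPKM in P0 OCT4-GFP cells, so that cells sorted for fluorescence held them too, and 0.744 FPKM in P7 ID4-GFP cells. The complement genes C1qa, C1qb and C1qc, which mark tissue macrophages, stood at 4.15, 3.59 and 3.48 FPKM in P7 THY1 cells and at 67.2, 49.5 and 69.6 FPKM in P0 THY1 cells. In OCT4-GFP cells C1qa stood at 40.5 FPKM at P7 and 62.3 FPKM at P0, whereas it stood at 1.21 FPKM in P7 ID4-GFP cells. Complement genes of other cells were lower as well, with 7 of 11 at least 2-fold lower and a median of -1.92, among them C3 at 1.29 against 30.8 FPKM. The interferon list had a median of -1.03 over 12 members, or -0.42 under quantile scaling, with the membrane protein genes Ifitm3, at 8.35 FPKM in P7 THY1 and 83.0 FPKM in P0 THY1 cells, and Ifitm2, at 39.5 against 240 FPKM, while the interferon factor gene Irf1 stood at 104 against 36.8 FPKM. Antigen presentation genes had a median of -0.80 over 12 members, or -2.51 with the VASA THY1 column, with none 4-fold lower, and B2m stood at 202 against 367 FPKM. Mast cell and lymphoid genes had a median of -0.78 over 10 members, or -0.31 under quantile scaling and -3.16 with the VASA THY1 column, and the mast cell protease gene Cpa3 stood at 19.06 FPKM in P7 THY1 and 79.6 FPKM in P0 THY1 cells but at 0.0452 FPKM in P7 OCT4-GFP cells.

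Ribosomal and mitochondrial genes showed little difference. None of 43 ribosomal protein genes and none of 40 oxidative phosphorylation genes differed 2-fold in either direction, and their medians were 0.06 and 0.05. Under quantile scaling these were 0.12 and 0.01, and with the VASA THY1 column -0.36 and 0.28. Rpl4, of the large ribosomal subunit, stood at 1339.5 FPKM in P7 THY1 and 1274 FPKM in P0 THY1 cells and Atp5a1, of the ATP synthase, at 413 against 401 FPKM. Of 21 glycolysis genes 5 were at least 2-fold lower and 1 at least 2-fold higher. Their median was 0.00, or 0.13 under quantile scaling and -0.28 with the VASA THY1 column, and the lactate exporter gene Slc16a3 stood at 1.73 FPKM in P7 THY1 and 12.6 FPKM in P0 THY1 cells and the glucose transporter gene Slc2a1 at 55.6 against 22.2 FPKM. Cholesterol synthesis genes had a median of 0.39 over 23 members, or -0.08 with the VASA THY1 column at P7. Polycomb genes had a median of 0.21 over 27 members, or 0.33 under quantile scaling and 0.14 with the VASA THY1 column. On the higher side 6 passed 2-fold and on the lower side 1, with Mtf2 at 75.2 against 30.6 FPKM and Cbx6 at 3.55 against 24.5 FPKM. Among the 6 is Jarid2, whose listed 0 in P0 THY1 cells may be a failed estimate, as described below. Linker and core histone genes had a median of -0.40 in THY1 and 0.89 in OCT4-GFP columns over 20 members, and -0.79 with the VASA THY1 column, and near-identical copies make their single values uncertain.

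Genes that answer to handling and stress stood on both sides. In the immediate early list 6 of 19 members were at least 2-fold lower and 3 at least 2-fold higher in P7 THY1 cells, with a median of -0.37, or -2.25 with the VASA THY1 column. Fos, the first responder, stood at 96.1 FPKM in P7 THY1 and 738 FPKM in P0 THY1 cells, against 52.5 and 55.8 FPKM in P7 and P0 OCT4-GFP cells. Fosl1, a later FOS relative, stood at 22.1 FPKM in P7 THY1 and 7.71 FPKM in P0 THY1 cells. Heat shock genes had 4 of 16 at least 2-fold higher, none 2-fold lower and a median of 0.67, which became -0.11 with the VASA THY1 column at P7. The inducible genes Hspa1a and Hspa1b, near-identical copies whose reads may be split between them, stood at 27.9 and 34.3 FPKM in P7 THY1 cells and at 5.42 and 6.03 FPKM in P0 THY1 cells. How cell preparation bears on these genes was not tested.

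**Figure D3:**
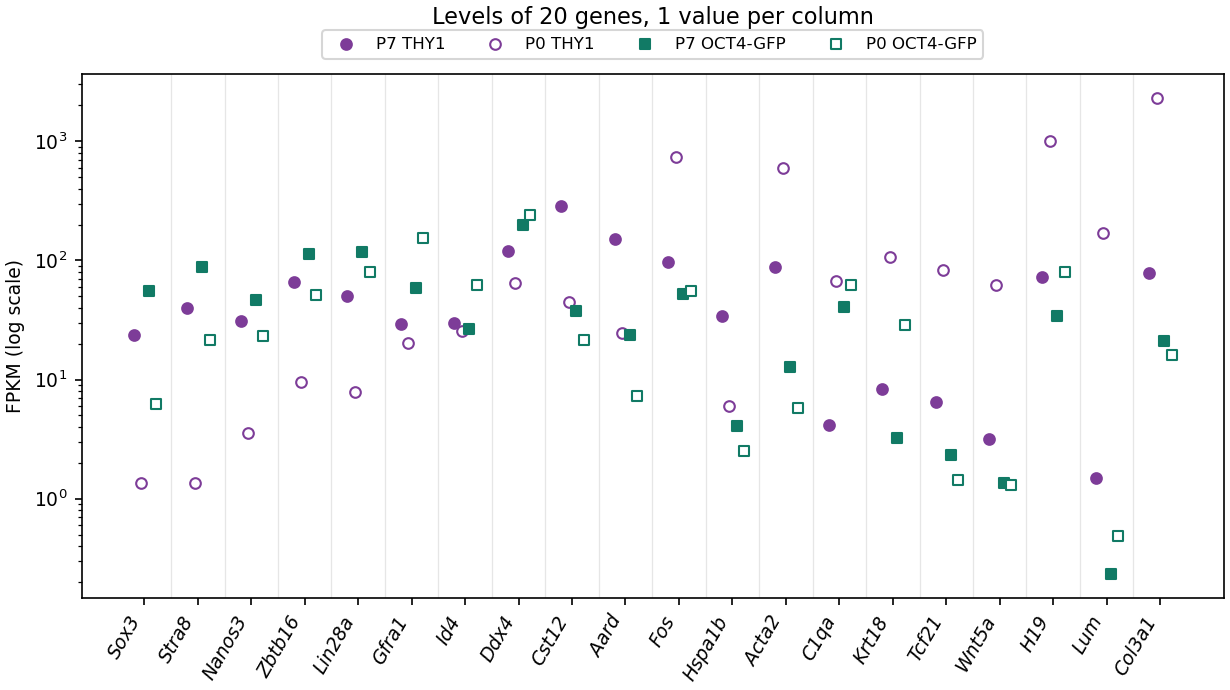
FPKM on a log scale for 20 genes, with filled circles for P7 THY1, open circles for P0 THY1, filled squares for P7 OCT4-GFP and open squares for P0 OCT4-GFP cells, 1 value each. At the right, Lum and Col3a1 are highest in P0 THY1 cells; at the left, Sox3 is higher at P7 in both selections, and Gfra1 and Id4 are lower at P7 in OCT4-GFP cells and not in THY1 cells.

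A few genes of late germ cells, red cells and lymphocytes stood high in P7 THY1 cells and low in the other P7 columns. Prm1, Prm2 and Tnp2, which package sperm chromatin, stood at 101, 29.7 and 37.7 FPKM in P7 THY1 cells, against 2.48, 0.0462 and 0.226 FPKM in P0 THY1 cells. Alas2, of heme synthesis in red cells, stood at 83.7 FPKM in P7 THY1 and 6.72 FPKM in P0 THY1 cells, and the haemoglobin gene Hbb-b2, which may share reads with its copies, at 886 against 31.2 FPKM. In the other P7 columns Hbb-b2 did not pass 3.94 FPKM. Gzmb, Gzmc and Gzmf, protease genes of cytotoxic lymphocytes, stood at 8.03, 27.6 and 5.30 FPKM in P7 THY1 and at 0.751, 0.296 and 0.315 FPKM in P0 THY1 cells. The mast cell and lymphoid list, which does not include them, went the other way, with all 10 expressed members lower at P7. Its members summed to 136 FPKM in P7 THY1 and 371 FPKM in P0 THY1 cells. Of the 69 higher genes 9 had under 2 FPKM in the other 4 P7 columns: Prm1, Prm2, Tnp2, Alas2, the 3 granzyme genes, Oaz3 and 1700018C11Rik, a check chosen after the values were seen. Without those 9, 60 genes were higher. Over the whole lists, 3 of 11 expressed spermatid genes (Prm1, Prm2 and Tnp1) and 3 of 7 expressed erythroid genes (among them Hbb-b2 and Alas2) were at least 4-fold higher, and all members in the table summed to 277 and 993 FPKM in P7 THY1 cells and to 54.0 and 50.4 FPKM in P0 THY1 cells. Hbb-bh1, Hbb-y, Car1 and Acrv1 of these lists were at 0 in P7 THY1 cells.

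Another 7 of the 69 genes were listed at 0 in P0 THY1 cells, and 4 of these, Jarid2, Arhgap21, Gphn and 2610528E23Rik, stood at 5 FPKM or more in at least 8 of the other 10 columns. Jarid2, a polycomb partner, stood at 33.4 FPKM in P7 THY1 cells and at 55.7 and 74.1 FPKM in P7 and P0 OCT4-GFP cells. Arhgap21 stood at 37.8 FPKM in P7 THY1 cells and was listed at 0 in P7 KIT cells too. A listed 0 of a gene so widely present may be a failed estimate, so these genes are given no fold. Of the 638 lower genes 6 were listed at 0 in P7 THY1 cells. Leaving out genes at 0 in either column, an alternative chosen after the values were seen, gave 62 higher and 632 lower genes.

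The genes past 4-fold in THY1 cells were next read in OCT4-GFP cells of the same ages, which share no library with them. By the same rule 14 genes were higher (0.067%) and 13 lower (0.0622%) at P7 in OCT4-GFP cells, and at 2-fold 236 (1.13%) and 284 (1.36%). Over expressed genes these were 0.0986% and 0.0915% at 4-fold and 1.66% and 2% at 2-fold. Both pairs held 1 gene in common among the higher, Sox3, which is 1.45% of the 69 and 7.14% of the 14, and 5 among the lower, Krt18, Krt7, Cpn1, Gngt2 and Sult5a1, which are 0.784% of the 638 and 38.5% of the 13. Krt7 stood at 0.395 FPKM in P7 and 7.33 FPKM in P0 OCT4-GFP cells. Cpn1, a carboxypeptidase gene, stood at 0.873 FPKM in P7 THY1 and 16.3 FPKM in P0 THY1 cells and at 3.45 and 17.7 FPKM in P7 and P0 OCT4-GFP cells, and Gngt2, a G protein subunit gene, at 5.73 and 31.7 FPKM and at 9.70 and 46.4 FPKM. Sult5a1, a sulfotransferase gene, stood at 3.14 against 27.5 FPKM in THY1 cells and at 8.18 against 37.6 FPKM in OCT4-GFP cells.

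At 2-fold in OCT4-GFP cells, 15 of the 69 higher genes were higher there too, 1 was lower and 53 passed neither way. Among the 638 lower genes 43 were lower there too, 8 were higher and 587 passed neither way. Genes under 5 FPKM in both OCT4-GFP columns fall among the 53 and 587 whatever their difference, such as S100a2 with -2.24. The median difference in OCT4-GFP cells was 0.57 over the 69 genes and -0.09 over the 638. At P0, 233 of the lower genes were under 1 FPKM in OCT4-GFP cells, 247 between 1 and 5 FPKM and 158 at 5 FPKM or more. Of all 20889 genes, 12547 were at 1 FPKM or more in that column. The lower genes all had at least 5 FPKM in P0 THY1 cells by the rule, and the 20889 genes were not so chosen. These counts are therefore not like for like. The median level of the 638 genes was 2.099 FPKM in P7 THY1 and 19.5 FPKM in P0 THY1 cells, the columns that chose them. In P7 and P0 OCT4-GFP cells it was 1.46 and 1.76 FPKM. Of the 69 higher genes 39 were at 5 FPKM or more in P0 OCT4-GFP cells, and the share over all genes was not computed. By the rule, higher genes reached 5 FPKM at P7 and lower genes at P0, so the 2 counts cannot be compared directly. The 69 genes had median levels of 27.6 and 2.55 FPKM in P7 and P0 THY1 cells, where they were chosen. In P7 and P0 OCT4-GFP cells these were 10.2 and 5.63 FPKM. Across the 14200 expressed genes, which are not independent replicates, Pearson's r between the difference in THY1 and in OCT4-GFP columns was 0.257, given as a description.

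**Figure D4:**
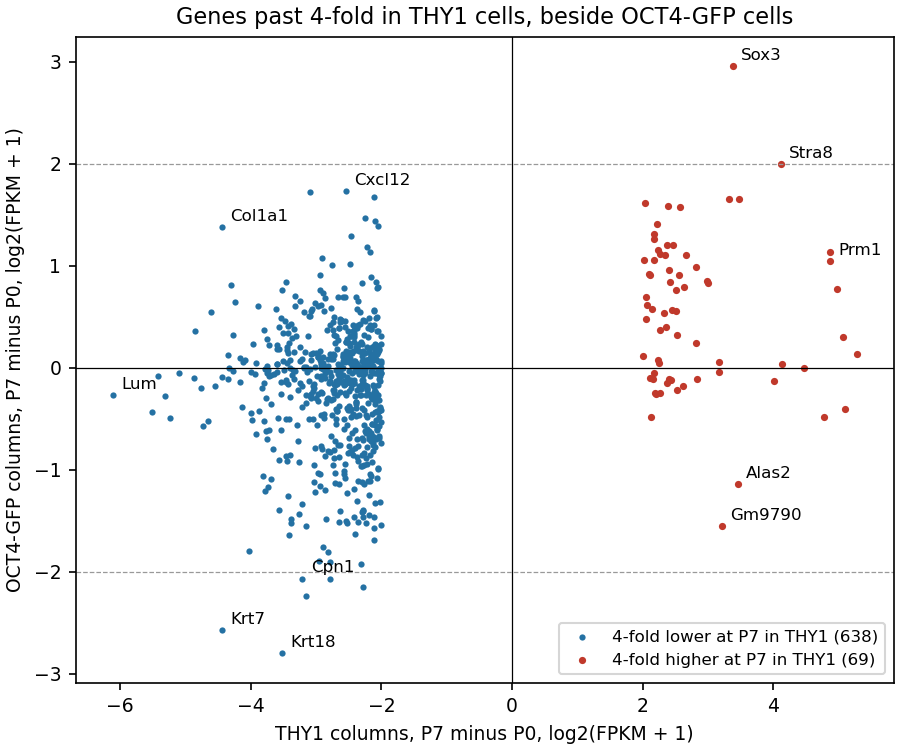
Each point is a gene past 4-fold in THY1 cells, with its difference P7 minus P0 of log2(FPKM + 1) in THY1 columns on the horizontal axis and in OCT4-GFP columns on the vertical axis; dashed lines mark 4-fold. Most of the 638 lower genes (blue) lie within 1 unit of 0 on the vertical axis, and Sox3 among the 69 higher genes (red) lies above the dashed line, with Stra8 on it.

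The later THY1 columns are set beside the difference. For the 638 and 69 genes the P0 and P7 levels follow from the rule that chose them. A return at later ages may also come from that choice, which was not tested. The 638 lower genes had a median level of 19.5, 2.099, 3.13 and 3.35 FPKM at P0, P7, P12 and P14. Between P7 and P12, 626 of them did not pass the 4-fold rule, 8 were higher at P12 and 4 lower. A gene under 5 FPKM at both ages cannot pass the rule, so the 626 need not have stayed within 4-fold. The 69 higher genes had medians of 2.55, 27.6, 19.6 and 4.35 FPKM at the same ages. Between P7 and P12, 57 of the 69 did not pass the rule, 2 were higher at P12 and 10 lower. The lists did not all keep their P7 order. The pan-germ cell median was 24.2, 46.9, 53.0 and 120 FPKM at P0, P7, P12 and P14, and the fibroblast median 158, 6.65, 12.4 and 29.8 FPKM. Peritubular myoid genes had medians of 55.8, 11.5, 18.8 and 8.58 FPKM and macrophage genes 25.8, 3.87, 7.77 and 4.51 FPKM. Col3a1, a member of the fibroblast list, stood at 2307, 79.2, 101 and 372 FPKM at the 4 ages and Hoxc8 at 17.4, 0.208, 0.422 and 0.506 FPKM. Undifferentiated genes had their highest median at P7, with 9.07, 24.2, 12.6 and 13.8 FPKM, and meiosis genes at P14, with 10.02, 8.98, 21.3 and 31.3 FPKM.

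**Figure D5:**
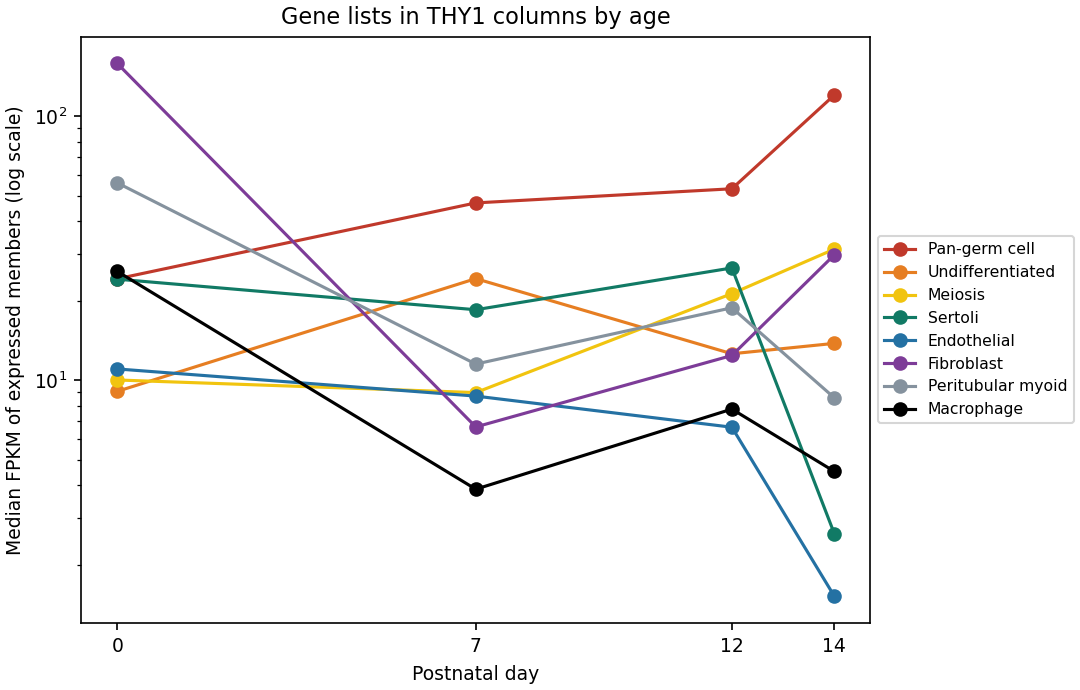
Median FPKM of the expressed members of 8 gene lists (log scale) in THY1 columns at postnatal days 0, 7, 12 and 14; each point is 1 column. The fibroblast line goes down between day 0 (158 FPKM) and day 7 (6.65 FPKM) and is at 29.8 FPKM on day 14, while the pan-germ cell line is at its lowest on day 0 (24.2 FPKM).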

How the data were processed

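The members and gene lists were chosen with earlier results of these data known. FPKM values were deposited by the authors in 1 table with a column for each group. The submitters' processing notes name Cufflinks 2.1.1, TopHat2 2.0.9, CASAVA and the mouse build mm9. How the libraries of a group were combined is not given in the sources used here. For the VASA THY1 column the age in the label differs from the age in the protocol, so its true age is uncertain.

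The difference was log2(FPKM + 1), P7 minus P0. The table has 11 columns for 16 RNA libraries; the other 14 samples of the series, 8 bisulfite and 6 ChIP or input libraries, were not used. Depth is unknown: among 78 genes under 0.05 FPKM in both THY1 columns the commonest ratio occurred 9 times, so whole reads could not be recovered. The upper quartile of FPKM was 17.2 to 18.2 in every column. With 1 value for each group no fit across genes, SD or p-value could be had.

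The 49 lists hold 1079 distinct genes, 12 listed symbols being absent from the table. Named genes are the sort and stem cell genes, the 15 largest differences in each direction, genes past 4-fold in both pairs of columns, the 5 members of each list that differ most at 5 FPKM or more, and list members abundant in both columns. Epcam, Itga6, Dhh, Rarg, Aldh1a3, Cldn7, Hoxc4, Hoxd9, the genes at the 4-fold bound, those flagged for opposite differences and those high in P7 THY1 cells alone were chosen after their values were seen. Python 3.11.15, pandas 2.3.3 and numpy 2.4.6 were used, and the scripts were tested on simulated data.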

Additional observations from a re-analysis of the deposited data

Results flagged for a closer look

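The 9 genes below passed 4-fold in THY1 cells and differed at least 2-fold the opposite way in OCT4-GFP cells. Each pair rests on 1 value for each age, and the difference between the pairs was not tested. Acta2 (difference -2.76 in THY1 cells) stood at 12.7 FPKM in P7 and 5.79 FPKM in P0 OCT4-GFP cells. Col1a1 (-4.44) stood at 23.9 FPKM in P7 and 8.59 FPKM in P0 OCT4-GFP cells. Cxcl12 (-2.54) stood at 8.14 FPKM in P7 and 1.76 FPKM in P0 OCT4-GFP cells. These 3 stromal genes were thus higher at P7 in sorted cells, at levels far under those of P0 THY1 cells. Gm9790 was higher in P7 THY1 cells, by 3.22, and stood at 7.35 FPKM in P7 and 23.5 FPKM in P0 OCT4-GFP cells.

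The other 5 are replication histone genes, whose near-identical copies may share reads. Hist1h1b (-2.04) stood at 81.0 FPKM in P7 THY1 and 338 FPKM in P0 THY1 cells, and at 138 FPKM in P7 and 52.0 FPKM in P0 OCT4-GFP cells. Hist1h2bf (-2.48) stood at 26.3 FPKM in P7 and 12.5 FPKM in P0 OCT4-GFP cells, Hist1h3f (-2.11) at 53.4 and 16.0 FPKM, Hist1h4f (-2.22) at 331 and 146 FPKM, and Hist2h2ab (-2.47) at 25.3 and 9.78 FPKM. Histone mRNAs of this class mostly lack poly(A) tails, as background, and how RNA selection bears on them was not tested.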

How the results depend on the processing

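The 69 higher and 638 lower genes became 26 and 221 with a pseudocount of 5, 19 and 167 at 8-fold, and 690 and 1870 at 2-fold. They became 20 and 1686 after centring on the pan-germ cell genes, and 151 and 1233 with the VASA THY1 column in place of the P7 THY1 column, of which 29 and 550 are among the 69 and 638. Quantile scaling gave 425 lower genes. The other settings, a pseudocount of 0.1, no floor or a floor of 1 FPKM, and centring on expressed genes, stayed within 1.5 times, with 75 to 90 higher and 581 to 884 lower genes, as did 102 higher genes after quantile scaling. Genes past the rule in both pairs numbered 1 higher and 5 lower. They became 4 and 11 with a pseudocount of 0.1, 45 and 110 at 2-fold, and 0 and 0 at 8-fold. A pseudocount of 5 left 1 lower, quantile scaling 3 lower, and centring on expressed or on pan-germ cell genes gave 2 higher. Lists with a median of -1 or less numbered 15 and with 1 or more 0: the second count became 1 with a pseudocount of 0.1 and 2 after quantile scaling, and with the VASA THY1 column the counts were 29 and 5. No named gene past 4-fold changed sign with a pseudocount of 0.1 or under quantile scaling, but 14 no longer passed 4-fold under quantile scaling. A change of sign was not looked for in named genes short of 4-fold. Single named genes were not recomputed under the other settings, and with the VASA THY1 column some that were higher are lower (Hbb-b2, Cyr61). Why the counts moved was not tested. No paired analysis was possible because each group has 1 value in the table, and for the same reason no replicate could be left out. Depth is unknown, so no limit for low values can be given.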

Other observations

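Genes of nerve and glia had a median difference of 0.12 over 9 expressed members, or 0.71 under quantile scaling and 0.31 with the VASA THY1 column, and sums of 59.9 FPKM in P7 THY1 and 75.8 FPKM in P0 THY1 cells. A mixed list of hormone receptor, hormone, enzyme and gonad factor genes had a median of -1.10 over 15 members, 7 of them at least 2-fold lower and 2 at least 2-fold higher at P7. Leydig cell genes summed to 340 FPKM in P7 THY1 and 533 FPKM in P0 THY1 cells, and endothelial genes to 243 and 364 FPKM.

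The 6 genes listed at 0 in P7 THY1 cells were Defb25, Gm266, Pdyn, S100a2, Tff3 and Zcchc5. Of the 638 lower genes 29 were at least 16-fold lower and 167 at least 8-fold lower.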
